A study of Mus musculus with 6 samples.

Results

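On a 1-colour microarray with 41069 probes for PIWI-interacting RNAs (piRNAs), 10289 well-detected probes were compared between the testes of mice whose mothers had drunk microcystin-LR (MC-LR) and control testes, and 349 of them had a scaled signal at most about 0.5 times as high in the MC-LR testes with no overlap between the groups. MC-LR is a cyclic peptide toxin made by cyanobacteria that blocks serine/threonine protein phosphatases. The MC-LR group held 3 male offspring, aged 30 days, of dams given 10 μg/L MC-LR in their water between gestation day 12 and postnatal day 21. The control group held 3 male offspring of the same age whose dams drank water with 0 μg/L over the same days. Offspring within a group came from different dams, and per the labels the exposure was that of the dams. No source used here names the strain. Both groups were whole testis, in which fewer cells of a type and less RNA per cell cannot be told apart, and the array carries no marker genes against which the tissue label could be checked.

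The 349 probes were chosen by their measured values. A probe was eligible if its spot was well above background and free of outlier flags on all 6 arrays, which held for 10489 probes (25.5% of all). Its value was the log2 of the processed signal minus the array's median over those probes, so 0 stands for a middling detected probe and each step of 1 for a 2-fold change. The 200 eligible probes with the highest control mean were set aside, which left 10289. From these were kept the probes whose highest MC-LR value lay under the lowest control value and whose MC-LR mean was lower by 1 or more, that is 3.39% of the 10289. Because that same contrast picked them, their sizes are descriptions and carry no test. The mirrored rule in the other direction took 563 probes, or 5.47%.

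In the mouse testis, piRNAs are small RNAs bound by the PIWI proteins MIWI2, MILI and MIWI. Those of fetal and newborn germ cells largely guide the silencing of transposons, while the abundant pachytene piRNAs of meiotic spermatocytes and round spermatids are cut from long precursor transcripts of intergenic clusters. Individual piRNAs are therefore read as products of a precursor, and neighbours of one cluster usually share it. The probes bear only the maker's identifiers in the data used here, with no piRNA name, sequence or genomic position, so the 349 could not be sorted by cluster, by first base or by transposon, and probes that share a precursor cannot be recognised among them. The sources used here do not say how small RNAs were separated from longer ones in labelling.

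Most of the differences lay close to the limit of the rule and a few were much larger. The median difference, MC-LR minus control, was -1.18 among the 349 probes (2.26-fold lower), with quartiles of -1.38 and -1.07, against -0.13 over the 10289 probes. In 193 of the 349 (55.3%) the difference was smaller in size than 1.2. It reached 1.5 or more in size in 64 probes, 2 or more in 15 and 3 or more in 4.

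ASPI335456P had the largest reduction. Its processed signal was 71.6, 92.4 and 74.3 intensity units in the testes of MC-LR replicates 1, 2 and 3, against 2475, 364 and 1879 units in control replicates 1, 2 and 3. On the scaled log2 axis this was -0.58 ± 0.21 in MC-LR testes and 3.75 ± 1.38 in controls (SD, n = 3 each), a difference of -4.34 or 20.2-fold. The MC-LR values were tight and the controls wide, with control replicate 2 far under the other controls but still clear of every MC-LR array. Among the 10489 eligible probes it ranked 6957th by MC-LR mean and 932nd by control mean.

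ASPI228766P had 43.6, 269.9 and 114 units in MC-LR testes and 4172, 539.6 and 1392 units in controls. Here both groups were wide, at -0.10 ± 1.34 in MC-LR testes and 4.05 ± 1.35 in controls (SD, n = 3 each), and the difference was -4.15. The gap between the groups, from the highest MC-LR to the lowest control value, was 1.55 and lay between the replicate 2 arrays of both groups. Of all 349 probes it was the one whose difference varied most between slides, with -6.93 on slide 1 and -3.97 on slide 2.

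ASPI333393P was among the brighter probes in both groups. It had 1161, 1730.3 and 1295 units in MC-LR testes, against 23868, 6033 and 18877 units in controls, a difference of -3.76 (13.6-fold lower). It ranked 966th of 10489 by MC-LR mean and 249th by control mean. Its 3 MC-LR values agreed to an SD of 0.31, while the SD of the controls was 0.95.

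ASPI282912P was among the dimmer detected probes in MC-LR testes and among the brighter ones in controls. It had 27.5, 110.3 and 48.3 units in MC-LR testes and 638, 228 and 447 units in controls, a difference of -3.35. Its rank was 8813th in MC-LR testes and 1813th in controls, and the groups were parted by 1.60.

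The next 6 of the 10 largest reductions had differences between -2.91 and -2.35. ASPI249008P had 70.7, 327 and 185 units in MC-LR testes against 1171, 510.3 and 1279 units in controls. ASPI083463P had 47.6, 134 and 83.2 units in MC-LR testes against 773, 191 and 369.6 units in controls. ASPI253747P had 72.1, 497 and 231 units in MC-LR testes against 1186, 593 and 1099.9 units in controls. In all 10 of the largest reductions MC-LR replicate 2 was the highest of its group and control replicate 2 the lowest of its own. The groups of these probes thus came closest on the replicate 2 arrays, where array and animal cannot be told apart. Probes well above background numbered 20652, 14694 and 18067 on MC-LR arrays 1, 2 and 3. On control arrays 1, 2 and 3 they numbered 16402, 11523 and 14169, so replicate 2 had the fewest in each group. Whether this bears on the differences was not tested.

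ASPI101316P had 294, 315 and 258 units in MC-LR testes and 2409, 425 and 1534 units in controls. Its MC-LR values were nearly equal, with an SD of 0.10, and the spread lay in the controls, with an SD of 1.18. ASPI371367P had 242, 515 and 326 units in MC-LR testes and 2369.6, 733 and 1424 units in controls. ASPI218158P was the dimmest of the 10, with 19.3, 35.2 and 21.6 units in MC-LR testes and 155, 51.3 and 103 units in controls. By MC-LR mean it ranked 10481st of 10489, almost at the floor of detection, and 5011th by control mean.

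The gap between the groups was widest in ASPI335456P (2.53), ASPI333393P (2.35), ASPI282912P (1.60), ASPI228766P (1.55) and ASPI243341P (1.47). ASPI243341P, at 36.2, 73.8 and 38.2 units in MC-LR testes and 184, 139.8 and 153 units in controls, differed from the other 4 in that its controls were nearly equal (SD 0.08). Its difference was -2.17. Over the 349 probes the gap had a median of 0.54 and exceeded 1 in 28 (8.02%). The error that the scanner software assigns to a spot was typically 10.0% to 10.7% of the signal on these probes. In 264 of the 349 (75.6%) the gap was wider than the errors of the MC-LR and control spots that bounded it, added up. In 85 it was not. The rule demanded a gap between the groups, so these counts describe the set and are no test. The error is that of a single spot and does not cover the spread between animals. No such share is given for probes outside the 349.

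At the limit of the rule the values ran on without a break. Just inside, ASPI198661P and ASPI361965P had differences of -1.0001 and ASPI184934P of -1.0014. Just outside, and also without overlap between the groups, ASPI017971P had -0.9953, ASPI156185P had -0.9949 and ASPI155238P had -0.9935. The narrowest gaps among the 349 were 0.0010 in ASPI058370P and 0.0082 in ASPI020106P. ASPI218003P and ASPI400439P were lower by the mean but overlapped between groups by 0.0052 and 0.0072, and so were left out. Of the 10289 probes, 2093 (20.3%) had all 3 MC-LR values under all 3 control values, and 1744 of those had a smaller difference than the rule asks. Another 44 probes had the difference but overlapping groups.

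The 349 probes spanned most of the range of signals of the 10289 probes, with the brighter part more filled. Their control mean ran between -1.28 and 7.55 with a median of 1.44, against a median of -0.06 over the 10289 probes. Their MC-LR mean ran between -2.51 and 6.49 with a median of 0.03, close to the -0.03 of all 10289. The median processed signal of the 349 was 104, 157 and 108 units on the arrays of MC-LR replicates 1, 2 and 3, against 318, 192 and 226 units on those of control replicates 1, 2 and 3. When the 10289 probes were parted into 4 classes of equal size by the mean of all 6 arrays, the dimmest class held 61 of the 349, the next 56, the one after it 87 and the brightest 145. That was 2.37%, 2.18%, 3.38% and 5.64% of the probes of each class. The median difference of the 349 in these classes was -1.16, -1.21, -1.26 and -1.14 in this order. Over all probes of the classes it was -0.09, 0.00, -0.15 and -0.29, so the brightest class as a whole also lay lowest in MC-LR testes. Since the level shares its arrays with the difference, these shares describe the set and were not tested.

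The brightest of the 349 had modest differences, apart from ASPI333393P. ASPI139727P had 11651, 16661 and 6172 units in MC-LR testes and 25331, 13999 and 12709 units in controls, a difference of -1.06. In intensity units the groups of this probe overlap, and they part by only 0.06 once the arrays are scaled. ASPI032514P had 7795, 8733 and 7496 units in MC-LR testes and 17299, 8883 and 11947 units in controls, with a difference of -1.04 and a gap of 0.58. ASPI350609P and ASPI229236P, the other 2 of the 5 brightest, had differences of -1.07 and -1.01.

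At the dim end, the MC-LR signals lay near the floor of detection. ASPI324170P had 17.8, 24.9 and 20.1 units in MC-LR testes and 40.7, 37.1 and 40.4 units in controls, a difference of -1.34, and it had the lowest MC-LR mean of all 10489 eligible probes. The lowest signals counted as well above background were 16.5, 22.5 and 18.5 units on MC-LR arrays 1, 2 and 3, and 11.9, 26.0 and 15.6 units on control arrays 1, 2 and 3. ASPI071089P, ASPI021159P, ASPI400760P and ASPI380591P, the other 4 of the 5 dimmest by control mean, had differences of -1.06, -1.03, -1.18 and -1.29. In all, 73 of the 349 probes came within 2-fold of the floor on at least 1 MC-LR array and 52 on at least 1 control array. A true level under the floor would leave such a probe out, since eligibility asked for detection everywhere. With detection asked of the control arrays alone, the rule took 404 probes, the 349 and a further 55, of which 17 were well above background on no MC-LR array.

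Within the order of detected probes the 349 stood lower in MC-LR testes than in controls by a median of 2195 places, with 70 as the smallest and 7000 as the largest shift. By 4 equal classes of the group means, 106 of them were in the brightest class in MC-LR testes and 184 in controls. In the dimmest class there were 111 in MC-LR testes and 14 in controls. Relative to controls, 178 probes stood 1 class lower in MC-LR testes, 44 were 2 classes lower, 1 was 3 classes lower and 126 were in the same class. Over all 10289 probes 67.8% kept their class, against 36.1% of the 349. The rule used these means, so the shift in order restates it on another scale.

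The 349 probes were a small part of the total signal. They gave 0.595%, 0.775% and 0.616% of the summed signal of the 10489 eligible probes in MC-LR testes, and 1.69%, 1.1% and 1.31% in controls. Without the 3 largest reductions the shares were 0.591%, 0.769% and 0.611% in MC-LR testes and 1.58%, 1.07% and 1.22% in controls. The groups did not overlap in this share with or without those 3 probes. The rule asked each probe to be lower on every MC-LR array after scaling. This separation is therefore largely built into the choice and is no test.

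The 6 arrays did not contribute alike. The deviation of a probe from its own mean over the 6 arrays had a median, over the 349, of -0.83, -0.29 and -0.74 on MC-LR arrays 1, 2 and 3, and of 0.95, 0.35 and 0.57 on control arrays 1, 2 and 3. The replicate 2 arrays of both groups were thus the nearest to the middle. MC-LR replicate 2 was the highest of its group in 297 of the 349 probes (85.1%), against 45.0% of the 10289. Control replicate 2 was the lowest of its group in 247 (70.8%), against 39.6%. Both held at once in 212 (60.7%), against 17.4%. No rule on the order within a group was used, but demanding a gap between groups bears on it, so these shares are given as a description.

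Paired by slide, the differences were largest on slide 1 and smallest between the replicate 2 arrays. Per the file headers, replicate 1 of both groups was scanned on one slide, called slide 1 here, and replicate 3 of both groups on another, slide 2, while the replicate 2 arrays lay on slides of their own. The median difference of the 349 was -1.71 within slide 1, -1.29 within slide 2 and -0.62 between the replicate 2 arrays. Over all 10289 probes the same medians were -0.14, -0.14 and -0.04. The difference was -1 or lower in 339 of the 349 on slide 1, in 300 on slide 2 and in 63 between the replicate 2 arrays. Of all 10289 probes this held for 11.1%, 5.68% and 5.12% in the same order. The replicate 2 arrays share only a number and are set against each other because no other arrays were left. Within the first scan day (MC-LR replicate 3, control replicates 2 and 3) the median was -1.22, and within the second (MC-LR replicates 1 and 2, control replicate 1) it was -1.45. The MC-LR arrays had slide positions 4, 1 and 4 and every control array had position 3, so position and group cannot be told apart.

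How large a probe's difference was on one slide went partly with its size on the other. Across the 349 probes the slide 1 and slide 2 differences had r = 0.71 and Spearman's rho = 0.54, and r = 0.47 without the 10 largest reductions. These are correlations across probes, which are not independent replicates, and both slides helped to choose the set. With the replicate 2 difference, r was 0.04 and rho -0.24 for slide 1, and r was 0.18 and rho -0.09 for slide 2. ASPI144259P was the most even between the slides, with -2.10 on both, and had 19.5, 30.4 and 21.5 units in MC-LR testes and 65.7, 29.5 and 71.8 units in controls.

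A group of 41 among the 349 (11.7%) had a difference of -1 or lower in each of these 3 pairs of arrays, against 0.408% of the 10289 probes. The 41 had a median difference of -1.59. Of the 10 largest reductions, 8 belonged to it, and ASPI253747P and ASPI101316P, with -0.81 and -0.99 between the replicate 2 arrays, did not. ASPI243341P and ASPI324170P, described above for their wide gap and their low level, were both in it. The 3 pairs use the same arrays that chose the probes, and 3 such differences force a mean difference of -1 or lower. The share of 11.7% against 0.408% is therefore largely built into the choice and is no test.

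The spread within groups was somewhat greater in the 349 than in general. The SD within the MC-LR group had a median of 0.36 and that within controls of 0.35, against 0.26 and 0.28 over the 10289 probes.

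The 349 probes had the lower mean in MC-LR testes before scaling too, but most no longer met the rule. The MC-LR arrays were brighter in general, with medians of the eligible probes of 123, 119 and 112 units, against 97.0, 81.4 and 87.3 units on control arrays, a mean shift of 0.42 on the log2 scale. Without any scaling the median difference was -0.76 over the 349 and 0.29 over the 10289 probes. All 349 remained below 0, against 27.1% of the 10289, and in 192 the groups stayed apart, against 3.19%. With every scaled difference at -1 or lower and a shift of 0.42, staying below 0 was fixed by the rule. The same arrays chose the probes, so these counts are descriptions and no test. A difference of -1 or lower was left in 79 of the 349, against 0.816% of the 10289, and 53 met the whole rule, against 0.515%. In the authors' deposited table, which holds all 349, the median difference was -1.25 over the 349 and -0.14 over the 10289 probes. There 349 were below 0, against 59.8% of the 10289, 346 were without overlap, against 20.7%, and 288 met the rule, against 3.8%, all in the authors' deposited table. For ASPI335456P, ASPI228766P and ASPI333393P the authors' deposited table gave -4.54, -4.33 and -3.79.

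In a fit across all probes well above background on at least 3 arrays, 177 of the 349 (50.7%) were called lower (limma, Benjamini-Hochberg adjusted p under 0.05 over 16074 probes, of which 1.46% were called lower). The rule and the fit used the same contrast, so nothing is read from the share. The adjusted p-values of the 349 by limma ran between 0.0416 and 0.153. The fit called 57 further probes lower. Of these 34 were not eligible, 2 were among the brightest 200 and 21 had a smaller difference. The count of 177 was 0 without MC-LR replicate 1, MC-LR replicate 3, control replicate 1 or control replicate 3, and 5 without control replicate 2, by limma. In this order 324, 327, 330, 344 and 347 of the 349 were at an unadjusted p under 0.05 by limma, against 5.8%, 7.14%, 10.1%, 7.66% and 11.3% of the 16074 probes that were lower at that p. These counts come from the contrast that chose the probes and support nothing. Of the fits without 1 array only that without MC-LR replicate 2 gave more, 233, with 375 of the 16074 probes called lower by limma. The fit without control replicate 2 called 8 of the 16074 lower, and the remaining ones called 0. With slide as a block, limma called 347 of the 349 lower, but also 2194 of 15978 probes (13.7%). That fit takes the group difference from slides 1 and 2 alone, since each replicate 2 array was the single array of its slide.

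The local background and the diameter of the spots overlapped between the groups. The rule set no limit on either, but background enters it through the background-subtracted signal and the detection flag. The local background around the 349 spots had a median of 21.5 ± 0.50 units on MC-LR arrays and 21.5 ± 0.87 units on control arrays (SD, n = 3 each, exact permutation test, two-sided, p = 1). The spot diameter in the software's units was 48.5 ± 0.85 on MC-LR arrays and 49.3 ± 1.19 on control arrays (SD, n = 3 each, exact permutation test, two-sided, p = 0.5). With 3 arrays against 3 the smallest possible p is 0.1. No spot of the 349 was saturated on any array.

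The spots were spread over the whole array surface. In 4 bands of its 532 rows they were 3.03%, 2.99%, 3.61% and 3.98% of the 10289 probes' spots, and in 4 bands of its 85 columns 3.52%, 3.23%, 2.99% and 3.86%. On the signal before the software's spatial detrending the rule took 330 probes, 306 of them among the 349, with a median difference of the 349 of -1.16.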

How the data were processed

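Total RNA of 6 testes was labelled with Cy3 and hybridised to a 1-colour Agilent piRNA array of 41069 piRNA probes, 1 spot each, and 1417 control spots, which were left out. Spots were measured in Agilent Feature Extraction 11.0.1.1, per the submitters' processing notes. The deposited intensity values are its processed signals, background-subtracted and spatially detrended, with no normalization between arrays per the file headers. Its flags (171 probes had an outlier flag on some array) and spot diameters come from the same deposited files. The authors' deposited log2 table of 17220 piRNA probes is normalized by a method not given in the sources used here.

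Values were scaled by each array's median over eligible probes. Groups were fitted with limma 3.58.1 (lmFit, eBayes, two-sided, no covariates) in R 4.3.3. The fit took probes well above background on at least 3 arrays, with flagged spots left out. Per-array medians were compared by exact permutation. The scripts were tested on simulated data. Named probes were the 10 largest reductions, the 5 brightest and 5 dimmest by control mean, the 5 widest gaps, those nearest the limits of the rule, and those most and least different between slides. The probes, lists and tests were chosen with earlier results of these data known. The number of arrays limits the precision.

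Same-numbered replicates deviated together with r = 0.29, 0.02 and 0.47 for numbers 1, 2 and 3. The main fit had no block, and the counts with the replicate number or the slide as a block are given beside it. Numbers 1 and 3 each shared a slide, and differences within those slides are given as such.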

Additional observations from a re-analysis of the deposited data

How the results depend on the processing

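The number of probes that met the rule, 349, depended on the scaling: it was 218 with the 75th percentile of the eligible probes, 568 with that of all piRNA probes and 53 with no scaling. These settings shifted the median difference of the 10289 probes by 0.13, -0.14 and 0.42. Relative to that median the 349 lay at -1.05 under each, as a single factor per array must give. Lower probes were 38.3% of the lower and higher ones together as scaled here, 22.9%, 58.4% and 3.71% under those 3 settings, 28.5% with quantile normalization and 37.1% in the authors' deposited table. All 349 kept a difference below 0 under these 5, which use the same arrays that chose the probes and so are no test. The count was 65 with median signals and normexp (offset 50), 524 when significance over background replaced the stricter flag, 64 and 1467 with limits of -1.5 and -0.5, 1143 and 584 within slides 1 and 2, 586 and 783 within scan days 1 and 2, and 800 without both replicate 2 arrays. It ranged between 255 and 649 on leaving out 1 array, 649 being without MC-LR replicate 2. With fewer arrays the demand for no overlap is weaker, and within a slide, with 1 array per group, the difference alone meets it. Counts within slides or scan days and without 1 or more arrays are therefore not like for like with 349. The median difference of the 349 was -0.76 with no scaling, -0.81 with normexp, -1.71 within slide 1, -0.62 between the replicate 2 arrays and -1.49 without both replicate 2 arrays, and ranged between -1.36 and -1.07 on leaving out 1 array. The count called by limma, 177, was 138 with the replicate block, where 223 of all 16074 tested probes were called lower. It was 347 with slide as a block (2194 of 15978 called lower) and 44 with normexp (53 of 16074). With no filter it was 0, and 0 of all 41068 tested probes were called lower. There all 349 had an unadjusted p under 0.05 by limma, against 3.99% of the 41068 that were lower at that p. The count called by limma ranged between 0 and 233 on leaving out 1 array. By correlation of deviations, replicates 1 and 3 of each group matched their own number best and replicate 2 of neither group did. The added settings, chosen after seeing the data, were the values within scan days, those of the median within slides, those without both replicate 2 arrays or without the 3 largest reductions, and the signal before detrending. Where a setting moved a value, the cause was not tested beyond what its construction shows.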
